A study of Arabidopsis thaliana with 8 samples.

Results

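AT3G15450, AT3G15630 and AT1G23390 are the 3 Arabidopsis genes whose response to 30 h at 37 °C changed most, in the upward direction, between the end of the stress and 2 days of recovery. They were taken from probe sets that the array's gene table assigns to a single gene, which were 13513 of the 22746 probe sets tested, by the size of the difference between the heat effect after recovery and the heat effect before it. That difference was 8.91 for AT3G15450, 8.0 for AT3G15630 and 7.27 for AT1G23390 on the log2 scale, and the next gene in rank, AT1G66100, had 7.19. Since the members were picked by these values, all their levels and differences are descriptions without a test. In the rank over all probe sets the 3 genes stood at places 2, 6 and 10, and the 7 probe sets among them have no single listed gene and are unnamed here.

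RNA came from seedlings of Arabidopsis thaliana aged 3 weeks, raised in vitro at 22 °C under long days, and the labels do not state the strain. Heat began 3 h into the light period, when plants went to 37 °C for 30 h. They were collected either directly at the end of it (heat, no recovery) or following 2 further days at 22 °C (heat, recovery). Mock plants stayed at 22 °C and were sampled for each of the 2 times. Each of the 4 groups had 2 biological replicates, 8 Affymetrix arrays in all, and what made the replicates separate is not given beyond that word. Values are log2 expression, so 1 unit is a 2-fold step, and values below 2.3 were read as the floor of the signal. Array medians ran from 5.04 to 5.11, between 30.8% and 31.8% of values per array were at the floor, and the 2 arrays of a group had a Pearson r of 0.995 to 0.996 over the probe sets.

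The tables used here give these 3 genes no symbol and no description, so no role is assigned to them. The gene lists set beside them cover sugar starvation and the kinase SnRK1, breakdown of amino acids, starch and sucrose, autophagy, flavonoids and the clock. Others hold Kelch-repeat F-box proteins, proteins with YGL and LRDR motifs, and markers of tissues and cell types. When sugars run short, as in the dark, the kinase SnRK1 turns on genes for the breakdown of amino acids and other reserves, and sugar turns the same genes down. Kelch-repeat F-box proteins are adaptors that hand chosen enzymes to the ubiquitin system for destruction, and in Arabidopsis some of them act on enzymes of phenylpropanoid and flavonoid synthesis. Proteins with the YGL and LRDR motifs are a small family named after relatives induced by aluminium, and AILP1 is one of them.

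All 3 genes went from a high signal to a low one during the stress. AT3G15450 (probe set 258402_at) stood at 12.56 and 12.76 in mock plants and at 3.84 and 4.29 in heat-stressed plants before recovery. Every mock array was above every stressed array, and the nearest values lay 8.28 log2 units apart. The group means were 12.66 ± 0.14 and 4.06 ± 0.31 (SD, n = 2), a difference of -8.60 ± 0.18 (standard error of the limma fit), or 387-fold lower in heat. This was the deepest fall among probe sets with a single gene and the third deepest of all. In whole seedlings, less RNA per cell and fewer cells of a type that express the gene cannot be told apart.

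AT3G15630 (probe set 258225_at) stood at 10.10 and 10.67 in mock plants and at 3.00 and 3.09 in stressed plants before recovery. The stressed arrays differed by 0.09 and the mock arrays by 0.57, so nearly all the spread lay in the mock plants. The difference was -7.34 ± 0.23, or 162-fold lower, the third deepest fall among probe sets with a single gene. Because the stressed arrays lay close to the floor, the size of this fall depends on how low signals are treated, and with all values under 4 set to 4 it was -6.38.

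AT1G23390 (probe set 262986_at) stood at 11.33 and 11.55 in mock plants and at 4.34 and 5.33 in stressed plants before recovery. It varied more under heat than the other 2 genes, with 1.00 between its stressed arrays against 0.22 between the mock arrays. The difference was -6.60 ± 0.36, or 97.3-fold lower, and it was the eighth deepest fall among probe sets with a single gene. By depth of fall alone it would not have been among the first 3.

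**Figure D1:**
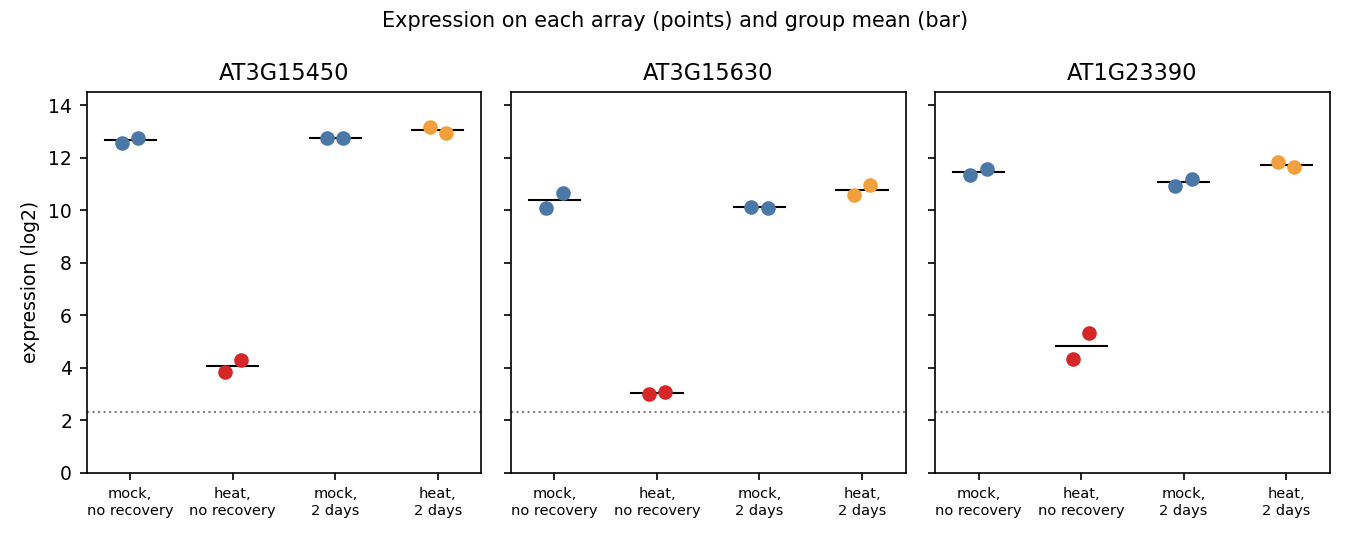
Expression of AT3G15450, AT3G15630 and AT1G23390 (log2, y axis) on each of the 8 arrays by group, with points for arrays, bars for group means and a dotted line at 2.3 for the floor. The stressed arrays before recovery lie between 3.00 and 5.33, and the other 6 arrays of each gene lie above 10.

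Across all probe sets, 24.1% had both stressed arrays before recovery below the other 6 arrays, as these 3 had. In the fit over all probe sets, 19.8% were lower and 21.2% higher in heat before recovery at an adjusted p under 0.05. Because the 3 genes were chosen from this contrast, nothing is read from their place in these shares.

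After 2 days at 22 °C the 3 genes were back at or above the mock level. AT3G15450 stood at 13.18 and 12.96 in recovered plants, against 12.76 and 12.76 in the mock plants of that time. Both recovered arrays were above all 4 mock arrays of both times, whose highest value was 12.76. The difference from the mock plants of that time was 0.31 ± 0.18, which is 1.24-fold.

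AT3G15630 stood at 10.58 and 10.97 in recovered plants and at 10.13 and 10.10 in mock plants of that time, a difference of 0.66 ± 0.23, or 1.58-fold. Here the recovered and mock arrays of that time did not overlap, but the lower recovered array was below the higher of the earlier mock arrays, at 10.67. AT1G23390 stood at 11.82 and 11.63 in recovered plants, against 10.93 and 11.19 in mock plants of that time, a difference of 0.66 ± 0.36, or 1.58-fold. As for AT3G15450, both recovered arrays were above all 4 mock arrays, the highest of which was 11.55.

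Between the 2 mock groups 0.0791% of all probe sets passed the test. The later mock plants differed from the earlier ones by 0.10 ± 0.18 for AT3G15450, -0.27 ± 0.23 for AT3G15630 and -0.38 ± 0.36 for AT1G23390. Set against the earlier mock plants, the recovered plants stood higher by 0.41, 0.39 and 0.29, which for AT3G15630 and AT1G23390 is less than the 0.66 against the later mock plants. The mock difference of AT3G15630 turned on 1 array, at 0.014 without mock no-recovery replicate 2 and -0.555 without replicate 1.

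The size of the return, from stressed to recovered plants, was 9.0 for AT3G15450, 7.73 for AT3G15630 and 6.89 for AT1G23390. Over all probe sets 9.47% had both recovered arrays above all 4 mock arrays, and over the 2855 that were called lower by at least 2-fold before recovery this share was 15.3%. Among the 31 that were lower by at least 6 log2 units, as all 3 genes were, it was 29.0% (9 probe sets), with a median difference from mock of 0.12 after recovery. The median difference between recovered and mock plants over the 2855 was 0.00, with quartiles of -0.24 and 0.23. Over all probe sets 0.237% passed the test after recovery, a count of 54 that was 15 or 16 without any one of the no-recovery arrays and 201 to 431 without any one of the recovery arrays.

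**Figure D2:**
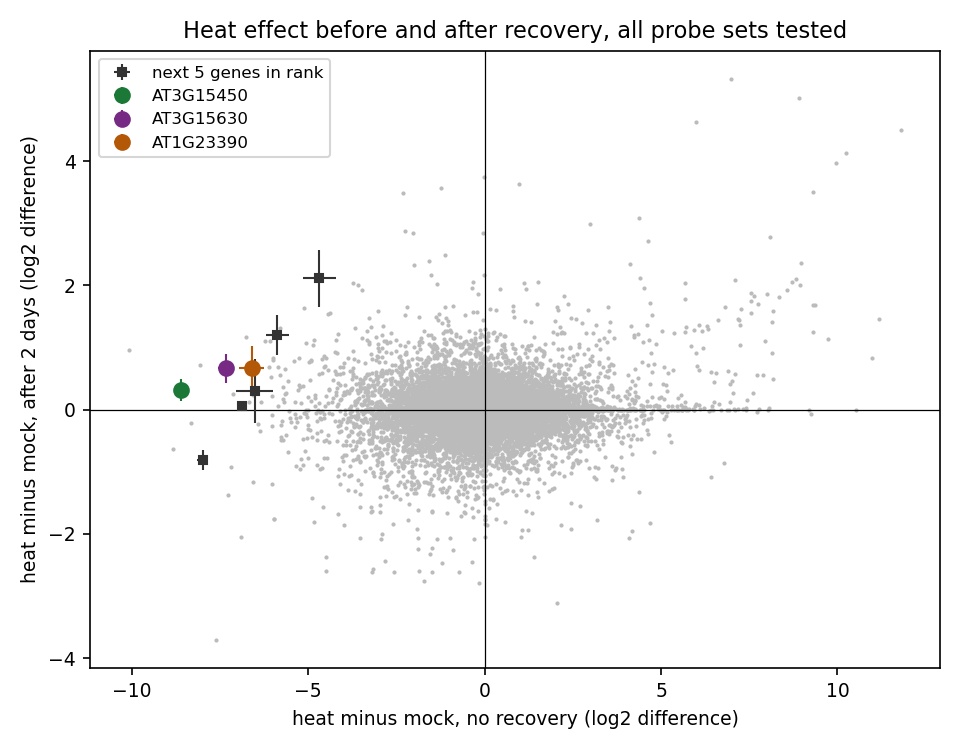
Heat minus mock (log2 difference) before recovery on the x axis and after 2 days on the y axis, for all 22746 probe sets in grey, the 3 genes in colour and the next 5 genes in rank as black squares, with standard errors of the fit. The 3 genes lie at -8.60 to -6.60 on the x axis and at 0.31 to 0.66 on the y axis.

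The 5 genes that followed in rank were AT1G66100, AT2G20670, AT1G52200, AT5G61590 and AT1G72060, with differences of 7.19, 7.07, 6.94, 6.81 and 6.80 between the 2 heat effects. They reached that value in different ways. AT1G66100 was at the floor in stressed plants and was still at 7.67 in recovered plants against 8.47 in mock plants of that time. AT1G52200 stood at 9.94 against 9.88, level with mock. AT1G72060 stood at 8.25 against 6.14, well above it, after reaching the floor under heat. AT5G61590, for which the gene table lists the name Decrease Wax Biosynthesis, had stressed arrays 4.10 and 5.63.

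AT3G15450 and AT3G15630 lie near each other on chromosome 3, with 21 coding genes between them in the TAIR10.1 order. Of these 12 had a probe set with a single gene, of which 5 were lower and 3 higher in heat before recovery, with a median change of -0.16. The deepest of them was AT3G15570 at -3.40, chosen here after its value was seen, and the highest reached 2.51. The neighbouring genes thus moved both ways, against 19.8% lower and 21.2% higher over all probe sets.

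The 3 genes had similar values over the 8 arrays, with Pearson r of 0.997 between AT3G15450 and AT3G15630, 0.996 between AT3G15450 and AT1G23390 and 0.995 between AT3G15630 and AT1G23390. These values are set mostly by the 2 stressed arrays before recovery. Over the other 6 arrays r was 0.61, 0.69 and 0.77 for the same pairs, where all 3 genes share the slightly higher recovered plants. Of 337 probe sets with a single gene and a range of at least 4 log2 units over the arrays, 128 had an r of at least 0.95 with AT3G15450, 126 with AT3G15630 and 125 with AT1G23390, so a high r was common among strongly changing genes.

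Closest to AT3G15450 over 8 arrays were AT1G52200 (r = 0.998), AT4G16870, a pseudogene in RefSeq (0.998), AT3G06070 (0.997), AT1G35612, another pseudogene (0.997), and AT3G15630. Over the 6 arrays without stressed plants AT1G35612 still had an r of 0.90 and AT3G06070 of 0.75, whereas AT1G52200 and AT4G16870 had -0.42 and -0.51. AT4G16870 went from 7.56 to the floor of 2.18 under heat and was at 7.49 after recovery.

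Closest to AT3G15630 were AT5G24490 (r = 0.999), AT4G30690 (0.998), AKINBETA1 (AT5G21170, 0.998), AT3G47800 (0.998) and AT1G78460 (0.998). These 5 kept an r of 0.81 to 0.93 over the 6 arrays without stressed plants, which was 0.92 for AT5G24490 and 0.93 for AKINBETA1. AKINBETA1 encodes a beta subunit of the SnRK1 kinase. AT5G24490 fell from 13.31 to 8.61 and was at 13.50 after recovery.

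Closest to AT1G23390 were AT1G78460 (r = 0.997), AT5G61590 (0.997), AT3G15450 (0.996), AT5G19120 (0.996) and AT5G40450 (0.995). Over the 6 arrays without stressed plants r was 0.84 for AT5G19120 and 0.83 for AT5G61590 but 0.35 for AT5G40450. AT5G61590 shared the wide gap of AT1G23390 between the stressed arrays, with replicate 1 the lower in both genes.

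**Figure D3:**
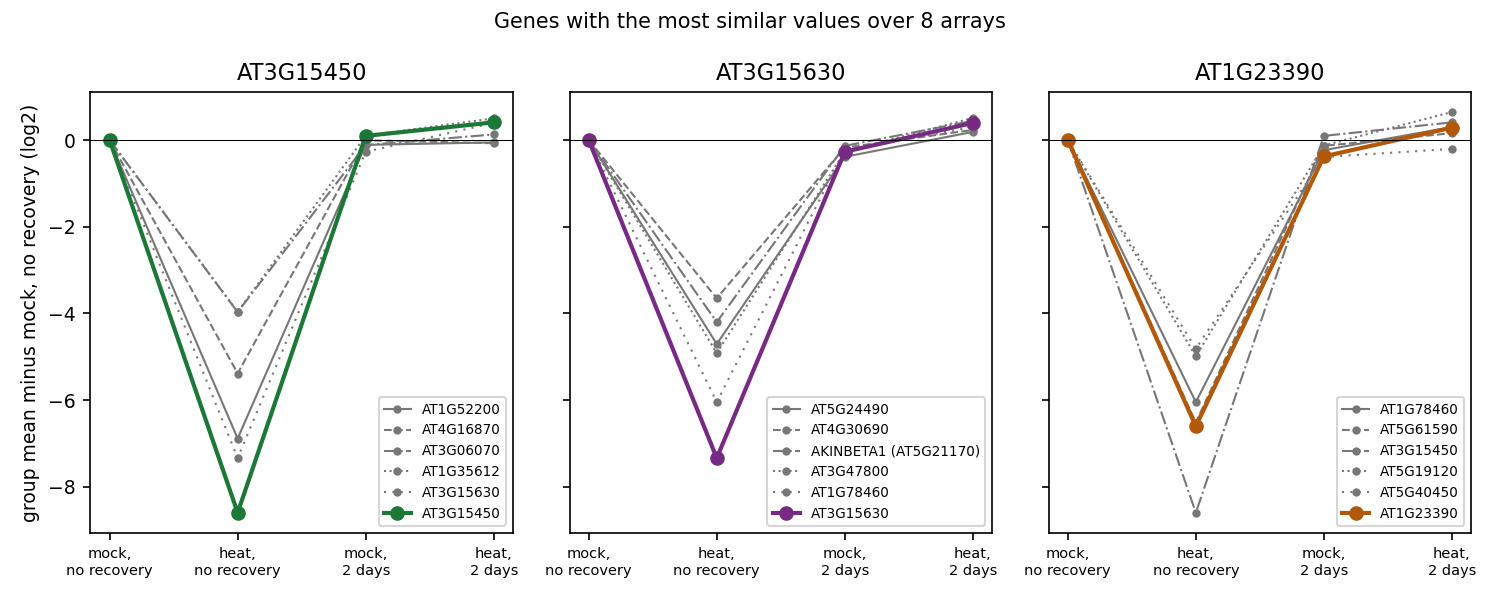
Group means relative to mock plants without recovery (log2, y axis) in the 4 groups, for AT3G15450, AT3G15630 and AT1G23390 in colour and the 5 genes with the highest Pearson r over 8 arrays in grey. All lines drop in stressed plants before recovery and return to near 0 in the other groups, and AT3G15450 reaches the lowest point at -8.60.

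Few of the listed genes for sugar starvation and SnRK1 had a probe set with a single gene, 4 of 35, and the 3 genes above were counted in none of the lists. All 4 fell in heat before recovery (adjusted p of 0.000286 to 0.00202, limma), with a median of -3.06 against 0.00 over all probe sets, of which 19.8% were called lower. AKINBETA1 stood at 9.13 and 9.46 in mock plants, at 5.04 and 5.16 in stressed plants, and at 9.57 and 9.90 after recovery. It fell by 4.20 ± 0.20 in heat. ATL8 (AT1G76410), a ubiquitin ligase of the RING type, fell by 3.03 ± 0.30, and AT2G32150 fell by 3.08 ± 0.28. The stressed arrays of ATL8 lay near the floor, at 3.07 and 2.53, and with values under 4 set to 4 its difference was -1.83 before recovery and 2.67 between the times. CCL (AT3G26740) fell by 1.46 ± 0.12.

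After recovery 0 of these 4 genes was called, with differences from mock of 0.39 to 0.84. At that time only 0.237% of all probe sets were called, so the absence of a call says little about a full return. The change in heat effect between the 2 times was tested here, since these genes were not ranked by it. The lists were, however, chosen with earlier results of these data known. The change was called higher for all 4, against 15.4% of all probe sets and 4079 of the 13849 that reached log2 4 on 2 arrays or more. It was 4.78 ± 0.28 for AKINBETA1 (adjusted p = 0.000919), 3.87 ± 0.43 for ATL8 (adjusted p = 0.00425), 3.64 ± 0.39 for AT2G32150 (adjusted p = 0.0041) and 1.84 ± 0.16 for CCL (adjusted p = 0.00246). AKINBETA1 was thus both a listed gene and one of the 5 closest to AT3G15630.

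All 4 listed proteins with YGL and LRDR motifs were measured, and 3 fell in heat before recovery, against 19.8% of all probe sets, with a median of -2.47. AT4G27450 stood at 8.72 and 9.33 in mock plants, at 3.58 and 3.96 in stressed plants and at 10.27 and 10.33 in recovered plants. Its recovered arrays were above all 4 mock arrays, of which the highest was 9.48. It fell by 5.26 ± 0.25 (adjusted p = 0.000284), and its heat effect changed by 6.10 ± 0.35 between the 2 times (adjusted p = 0.000872).

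AILP1 (AT5G19140) fell by 3.66 ± 0.04 (adjusted p = 1.1e-05) and was level with mock after recovery, at 12.34 and 12.40 against 12.28 and 12.20. AT5G43830 fell by 1.29 ± 0.12 (adjusted p = 0.00177). AT3G22850 had -0.39 ± 0.11 (adjusted p = 0.0545) before recovery and -0.43 ± 0.11 after it, and was the member that did not pass. None of the 4 was called after recovery by limma over all probe sets, of which 0.237% were called.

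Of 9 measured enzymes of branched-chain amino acid breakdown, 6 fell and 2 rose in heat before recovery, with a median of -0.86. Over all probe sets 19.8% fell and 21.2% rose, so the 2 that rose are near the background share. MCCA (AT1G03090), a subunit of methylcrotonyl-CoA carboxylase in leucine breakdown, fell by 3.03 ± 0.25 (adjusted p = 0.00123). ETFQO (AT2G43400), which passes electrons from this pathway to the respiratory chain, fell by 1.80 ± 0.27, and ALDH6B2 (AT2G14170), an aldehyde dehydrogenase of valine breakdown, by 1.14 ± 0.16. MCCB (AT4G34030), the partner subunit of MCCA, fell by 0.86 ± 0.14, a call that ended without heat no-recovery replicate 2 (adjusted p = 0.0515). AT2G26800 rose by 0.81 ± 0.17 and AT5G09300 by 0.69 ± 0.17. The call of AT2G26800 ended without mock no-recovery replicate 1, heat no-recovery replicate 2 or either mock recovery array (adjusted p up to 0.0824). That of AT5G09300 ended without any one array except heat no-recovery replicate 2 (adjusted p up to 0.149) and with the replicate block (adjusted p = 0.0766). With only the 4 arrays compared just 2 of the 8 calls, both falls, were left.

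In this list the heat effect was called higher after recovery than before it for 7 of 9 genes and lower for 1, against 15.4% and 16.9% of all probe sets. It changed by 4.09 ± 0.36 for MCCA and by 2.42 ± 0.38 for ETFQO. IVD (AT3G45300), isovaleryl-CoA dehydrogenase, had -0.70 ± 0.24 before recovery (adjusted p = 0.0832) and 1.02 ± 0.24 after it, and its change of 1.72 ± 0.34 between the times was called (adjusted p = 0.0215). That call was lost in 5 of the fits with 1 array left out (without either heat no-recovery array, either mock recovery array or heat recovery replicate 2, adjusted p up to 0.0765). MCCA was at 1.06 ± 0.25 relative to mock after recovery. No gene of the list was called at that time, when 0.237% of all probe sets were. In a fit of only the 13849 probe sets that reached log2 4 on 2 arrays or more, 3 genes of the list were called then. That fit called 582 probe sets in all. The 8 called changes between the times became 5 without heat no-recovery replicate 1 or mock recovery replicate 1, and 4 without the second replicate of either recovery group. The 1 lower gene, AT5G09300, had -1.13 ± 0.25 (adjusted p = 0.0291), and its call was lost in 8 alternatives, 7 of them with 1 array left out (adjusted p up to 0.097).

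Of 24 listed flavonoid enzymes, 9 had a probe set with a single gene, of which 4 rose, 0 fell and 5 were not called in heat before recovery, against 21.2% higher and 19.8% lower over all probe sets. The median of the 9 was 0.03, and the 5 that were not called lay at the floor in stressed plants. UGT78D1 (AT1G30530), which adds a sugar to flavonols, stood at 7.96 and 7.84 in mock plants, at 9.31 and 9.27 in stressed plants and at 6.86 and 6.92 in recovered plants. It rose by 1.40 ± 0.05 (adjusted p = 0.000138). UGT78D2 (AT5G17050), another flavonoid glycosyltransferase, rose by 1.38 ± 0.09 (adjusted p = 0.000569).

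AT1G06000 rose by 1.54 ± 0.28 (adjusted p = 0.0136) and CHIL (AT5G05270), a chalcone isomerase-like protein, by 1.27 ± 0.25 (adjusted p = 0.0164). Both of these calls ended without mock no-recovery replicate 2 or without heat no-recovery replicate 1, which left 2 of the 4. That of CHIL also ended without mock no-recovery replicate 1 or heat no-recovery replicate 2 (adjusted p up to 0.0807). BAN, AT5MAT and UF3GT were at the floor on all 8 arrays, and DFR and AT4G14090 left it on 1 mock recovery array, so their response could not be measured. The listed flavonoid transcription factors had 0 probe sets with a single gene, and the enzyme chalcone synthase and the starvation marker ASN1 are not analysed here.

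After recovery these 4 flavonoid genes had lower means than mock, though only UGT78D1 was called, at -0.85 ± 0.05 (adjusted p = 0.0266), against 0.106% of all probe sets called lower then. That call ended with the replicate block (adjusted p = 0.0751), with only the 4 arrays compared (adjusted p = 0.14), and without either heat no-recovery array or mock recovery replicate 2. AT1G06000 had -1.12 ± 0.28, UGT78D2 -0.53 ± 0.09 and CHIL -0.33 ± 0.25. The heat effect was lower after recovery than before it for all 4, by -2.65 ± 0.40 for AT1G06000 (adjusted p = 0.0102), -2.25 ± 0.07 for UGT78D1 (adjusted p = 0.000215), -1.91 ± 0.12 for UGT78D2 (adjusted p = 0.00112) and -1.60 ± 0.35 for CHIL (adjusted p = 0.0296). For comparison, 16.9% of all probe sets were called lower.

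Of 16 measured Kelch-repeat F-box proteins, 5 rose and 2 fell in heat before recovery, with a median of -0.05. As shares these are 31.2% and 12.5%, beside 21.2% and 19.8% over all probe sets. AFR (AT2G24540), which acts in far-red light signalling, rose by 2.87 ± 0.30 (adjusted p = 0.00243), AT1G22040 by 1.14 ± 0.22 and AT1G30090 by 0.95 ± 0.11. The 2 that fell were AT1G51550 (-1.13 ± 0.32, adjusted p = 0.0478) and AT1G67480 (-0.80 ± 0.14, adjusted p = 0.0123). The call of AT1G51550 was lost in 9 alternatives, 6 of them without 1 mock array or 1 heat no-recovery array (adjusted p up to 0.192). That of AT1G67480 ended without heat no-recovery replicate 2, and that of AT1G22040 without either heat no-recovery array. The other genes that rose were AT1G74510 (0.88 ± 0.17) and AT3G63220 (0.26 ± 0.07). AT1G74510 lost its call in 3 of 14 alternatives, each without 1 no-recovery array. AT3G63220 lost its call in 10 of 14, among them those without any one no-recovery array. It was also lost with only the 4 arrays compared, with a variance trend and with values under 4 set to 4. With only the 4 arrays compared 3 of the 7 calls were left.

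**Figure D4:**
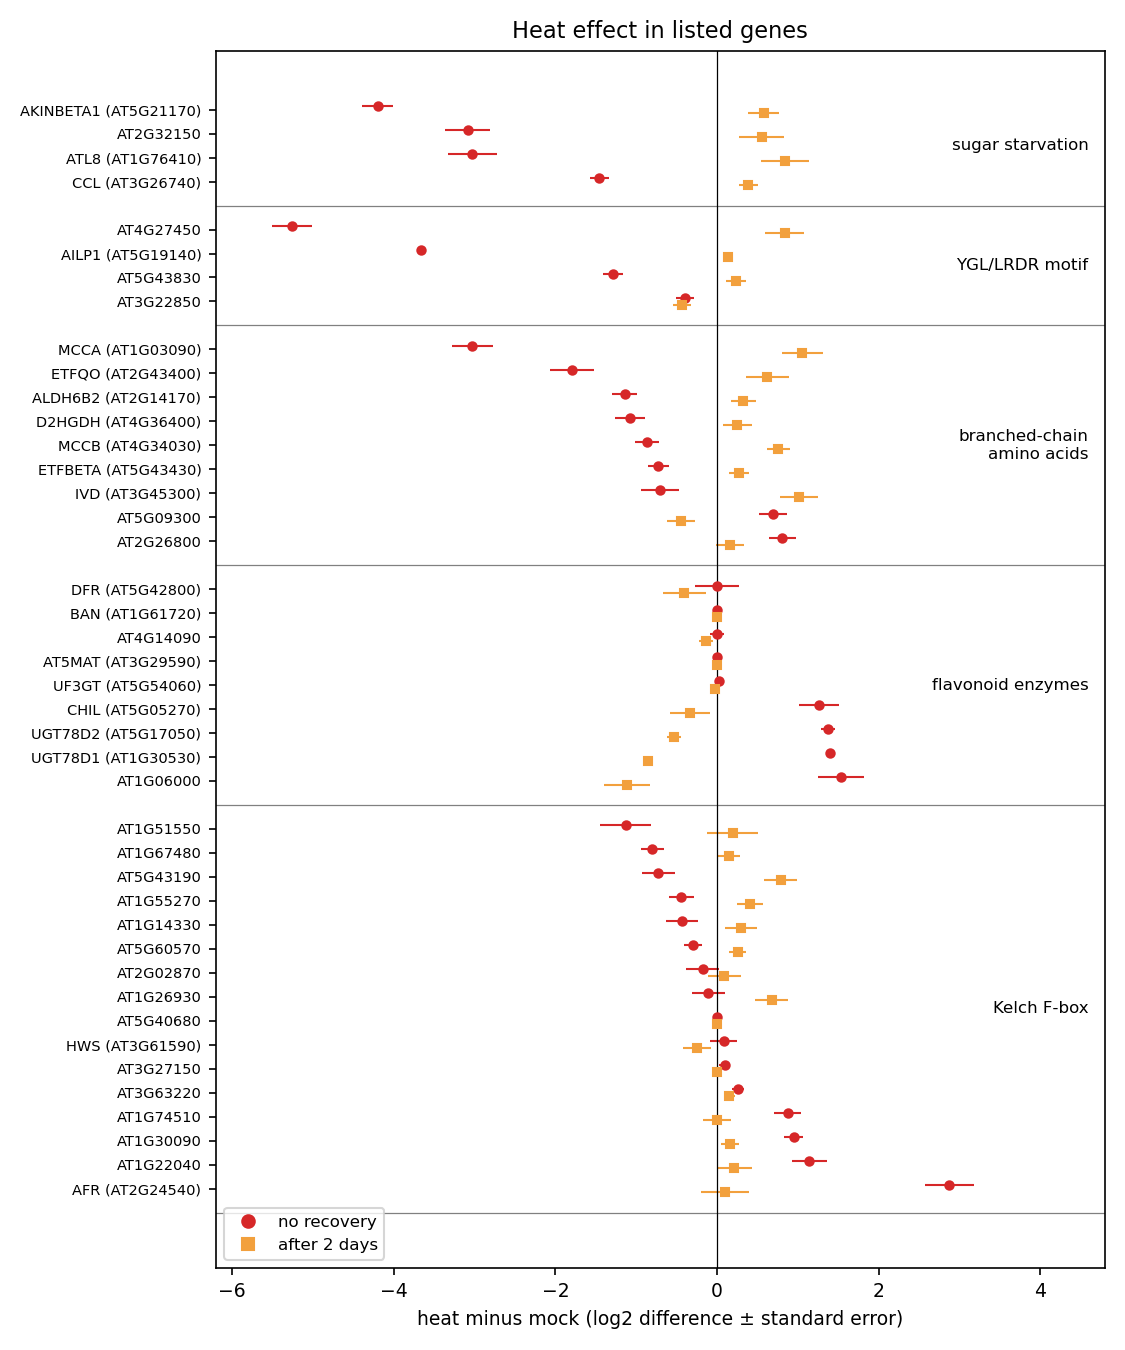
Heat minus mock (log2 difference, x axis, with standard error) before recovery (red circles) and after 2 days (orange squares) for the measured genes of 5 lists, 1 gene per line. The sugar-starvation genes lie between -4.20 and -1.46 before recovery, and the 4 flavonoid genes with a signal in stressed plants between 1.27 and 1.54.

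Lists with less coverage or mixed directions gave single values. In heat before recovery 1 of 4 SnRK1 and bZIP genes and 1 of 2 clock genes were called. Both were lower, beside 19.8% of all probe sets. Of 4 measured genes for SnRK1 subunits and bZIP factors, AT4G16360 (KINbeta2) fell by 0.61 ± 0.15, and without mock no-recovery replicate 1 or 2, heat no-recovery replicate 1 or either mock recovery array it was not called. AT2G28060 (KINbeta3) had -0.07 ± 0.12, BZIP53 0.07 ± 0.21 and bZIP44 0.37 ± 0.15. AKINBETA1, also a SnRK1 beta subunit, was counted with the sugar-starvation genes and fell by 4.20 ± 0.20. Of 2 clock genes GI fell by 0.85 ± 0.14, and its call ended without mock no-recovery replicate 1 or heat no-recovery replicate 2 (adjusted p up to 0.0528), while TIC had -0.38 ± 0.15 and among the alternatives was called only without mock no-recovery replicate 2.

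Of 4 genes of starch and sucrose breakdown, 2 rose and 2 fell, beside 21.2% and 19.8% of all probe sets. The alpha-amylase AMY1 stood at 2.80 and 5.03 in mock plants and at 9.51 and 10.32 in stressed plants. Its difference was 4.89 without mock no-recovery replicate 1 and 7.12 without replicate 2, and it was not called with only the 4 arrays compared (adjusted p = 0.0605). AT1G62660 rose by 1.23 ± 0.09, while DPE1, which rebuilds glucose chains from starch, fell by 2.03 ± 0.18 and PWD, which phosphorylates starch, by 0.75 ± 0.09. Of 9 ATG8 autophagy genes, whose products coat the vesicles of self-digestion, 5 rose and 2 fell, beside 21.2% and 19.8% of all probe sets. The 2 that fell are thus near the background share. With only the 4 arrays compared 5 of the 7 calls were left. The rises of ATG8C (0.415 ± 0.105) and ATG8H (2.54 ± 0.49) were the ones lost there. ATG8C lost its call in 8 of 14 alternatives, and of the fits with 1 array left out kept it only without mock no-recovery replicate 2. ATG8H lost its call in 3 of 14, also without either mock no-recovery array. ATG8E fell by 3.18 ± 0.14 and ATG8F by 1.82 ± 0.09, while ATG8D rose by 1.36 ± 0.07 and ATG8B by 1.97 ± 0.23.

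Some measures of tissue and RNA moved with the stressed arrays. Of 5 measured root markers the root and seedling beta-glucosidase PYK10 fell by 2.71 ± 0.27 (adjusted p = 0.00213) and was back at 0.16 ± 0.27 from mock after recovery, and the other 4 were at or near the floor in mock and stressed plants before recovery, with EXPA7 and EXPA18 at the floor on all 8 arrays. The log2 of the summed signal of the 5 ran from 11.3 to 11.9 in mock and from 8.84 to 9.06 in stressed plants before recovery, and from 11.7 to 12.1 in mock and 11.9 to 12.2 in heat-treated plants after it. PYK10 alone stood at 11.93 and 11.29 in mock and at 9.01 and 8.78 in stressed plants before recovery. The sum thus rests almost wholly on PYK10 and is no second measure. The 2 seed and embryo markers, PAP85 and AT4G36700, and the 1 marker of dividing cells, AUR1, were not called, with 0.00, -0.68 and -1.85 in heat before recovery, and the leaf markers had 0 probe sets with a single gene. AUR1 passed when only probe sets reaching log2 4 on 2 arrays or more were fitted, and also without either heat recovery array. AT4G36700 passed without mock no-recovery replicate 1. A control probe set for 25S ribosomal RNA stood at 13.49 ± 0.11 in stressed plants before recovery, against 11.58 ± 0.21 in mock (SD, n = 2), and at 11.89 ± 0.14 in recovered plants. Signal toward the 3' end of the GAPDH control exceeded that toward the 5' end by 3.19 ± 0.04 in mock and 2.95 ± 0.22 in stressed plants. Their part in the results above was not tested.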

How the data were processed

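Total RNA of 8 seedling samples was labelled with biotin and measured on Affymetrix arrays. The authors deposited 1 score per probe set and array, made with GCRMA per the submitters' processing notes (version, genome build and annotation not given in the sources used here). These deposited values are log2 values that lost their decimal point: 0 of 182480 held one. It was put back behind the leading digit, or behind 2 digits where a value starts with 1. No value began with 16 to 20, so each had 1 reading between 2.18 and 15.23. GCRMA equalises the arrays, so a shift shared by all transcripts is hidden. The 64 control probe sets were left out of the 22746 tested.

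The limma 3.58.1 fit (R 4.3.3) used 1 mean per group over 8 arrays, with 4 residual degrees of freedom, two-sided moderated tests, and Benjamini-Hochberg adjustment over all probe sets at 0.05. A ± without a label is the standard error. P-values set a difference of means against the spread between replicates, pooled over the 4 groups and moderated over all probe sets. With 2 arrays per group the precision is limited. Gene names came from the platform's gene table and RefSeq TAIR10.1 (13484 of 13513 matched). The array's build is not given, so no coordinates are printed. Values below 2.3 were taken as the floor. The procedure was tested on simulated data. Tables were read with Python 3.11.15 and pandas 2.3.3, and plots drawn with matplotlib 3.10.9.

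The members, the 14 gene lists, the tests and the 14 alternatives were chosen with earlier results of these data known. Named were the 3 members, the 5 most correlated genes for each, the 5 next in rank, every measured member of the YGL and LRDR list, chalcone synthase and ASN1 if measured, and per list and contrast up to 4 called genes with the smallest p and the first that moved against the rest. Not all of the genes of that last part are printed, and a few uncalled list members are named for completeness. Protein families by sequence were planned and are not analysed here.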

Additional observations from a re-analysis of the deposited data

Results flagged for a closer look

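The heat effect differed between the 2 times for the genes listed here, with values as log2 changes of the heat effect from before to after recovery. For AT3G15450 (8.91), AT3G15630 (8.0) and AT1G23390 (7.27), both stressed arrays lay below mock before recovery and both recovered arrays above mock afterwards. These 3 differences were not tested, because the genes were chosen by them.

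By limma's interaction test the heat effect was higher after recovery for AT4G27450 (6.10), AKINBETA1 (4.78), MCCA (4.09), ATL8 (3.87), AILP1 (3.79), AT2G32150 (3.64), ATG8E (3.64), PYK10 (2.87), ETFQO (2.42), DPE1 (2.42), ATG8F (1.92), CCL (1.84), IVD (1.72), MCCB (1.62), AT5G43830 (1.53), AT5G43190 (1.51), ALDH6B2 (1.47), PWD (1.34), GI (1.20) and AT1G67480 (0.95). It was lower for AFR (-2.77), AT1G06000 (-2.65), UGT78D1 (-2.25), UGT78D2 (-1.91), CHIL (-1.60), ATG8B (-1.42), AT5G09300 (-1.13), ATG8D (-0.97), bZIP44 (-0.94) and AT1G30090 (-0.79). Of the calls among them, those of AT5G09300, bZIP44, CHIL, IVD, AT5G43190, AT1G30090, AT1G67480, GI and ATG8B were lost when 1 array was left out.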

How the results depend on the processing

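The differences of AT3G15450, AT3G15630 and AT1G23390 before recovery kept their sign in all 14 alternatives, and those between the 2 times in the 13 that can give them. Setting values under 4 to 4 moved AT3G15630 to -6.38 before recovery and to 7.05 between the times. Leaving out single arrays gave -8.82 to -8.38 and 8.69 to 9.13 for AT3G15450, -7.62 to -7.05 and 7.72 to 8.29 for AT3G15630, and -7.10 to -6.11 and 6.77 to 7.77 for AT1G23390. The differences after recovery were 0.20 to 0.42, 0.47 to 0.86 and 0.54 to 0.79 in the same order, and that of AT3G15630 between the mock groups was -0.555 to 0.014.

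The count of 54 probe sets called after recovery became 582 with a filter that kept only probe sets reaching log2 4 on 2 arrays or more, 1 with only the 4 arrays compared, 18 with the replicate block, 18 with values under 4 set to 4, and 15 to 431 without single arrays. The 18 called between mock groups became 0 with only the 4 arrays compared, 9 with the replicate block, 8 with values under 4 set to 4, and 4 to 361 without single arrays. In these fits a group left with 1 array was taken to vary like the others. Over all 22746 probe sets, 9334 were called in heat before recovery, and 7067 with only the 4 arrays compared. With the filter 9749 of 13849 were called. Of 61 listed genes, 39 were called then, 25 with only the 4 arrays compared and 43 with the filter. After recovery 1 was called, against 8 with the filter, 0 with only the 4 arrays, 0 with the replicate block, 2 with quantile normalization, 2 with a variance trend, and 0 to 2 without single arrays. Between mock groups 0 to 2 were called without single arrays.

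By list, the change between the times was called for 5 Kelch-repeat F-box genes, against 11 with the filter, 2 with the replicate block and 2 to 5 without single arrays, and for 5 ATG8 genes, against 3 with the replicate block and without some single arrays. The change between the times needs all 4 groups and has no value with only the 4 arrays compared. Of 75 calls of listed genes over the comparisons (root marker included), 43 were kept under every alternative run, 32 were lost under at least 1 and 0 reversed. The replicate numbers were not treated as pairs, because the labels state no pairing. Same-numbered arrays deviated together by r of -0.13 to 0.15 over 6 pairs of groups. The cause of these changes was not tested.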
